A study of Homo sapiens with 14 samples.

Results

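The genes described here encode the protein coat of caveolae: the caveolins CAV1 and CAV2, the cavins PTRF (CAVIN1), SDPR (CAVIN2) and PRKCDBP (CAVIN3), and the membrane-shaping proteins EHD2 and PACSIN2. They were chosen by gene name, and the set was taken up because CAV2 fell after siRNA against CALCRL, so the siRNA value of CAV2 is a description and supports nothing. All 7 were listed in both of the authors' deposited tables, out of 12202 genes listed in either. The study used teloHAEC, a telomerase-immortalised line of endothelial cells from the human aorta. Its siRNA arm had 4 libraries of CALCRL siRNA and 4 of scrambled siRNA, lysed 24 hours after reverse transfection (CALCRL encodes the calcitonin receptor-like receptor). Its deletion arm had 3 libraries of cells that received Cas9 with guides on either side of a CALCRL enhancer and 3 of controls that received Cas9 with a guide to HPRT, electroporated 2 days before collection. Cas9 and induced cutting were thus shared by treated and control cells of that arm, but the guides and the sites cut differed. The labels describe electroporated cell pools, not clones. The labels do not say whether replicates came from separate cultures, so the p-values measure only the spread between these samples.

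Caveolae are flask-shaped pits of the plasma membrane that are abundant in endothelium. Caveolin-1 oligomers insert into the inner leaflet, and caveolin-2 joins them and depends on caveolin-1 to leave the Golgi. A cavin coat built around cavin-1 then stabilises the pit, cavin-2 and cavin-3 bind to it, EHD2 forms rings at the neck, and PACSIN2 (syndapin-2) is an F-BAR protein that bends the membrane. In endothelial cells caveolae are known for holding the nitric oxide synthase NOS3, for transcytosis and for flattening under stretch.

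One stretch of sequence is shown because CAV2 carried it and the other 6 genes did not. Nothing is read from that count, given the share of all genes that carried it (below). Over the 3' UTRs of all other genes in the siRNA comparison, GTAACAA was the word of 7 bases whose carriers had the lowest Wald statistics relative to non-carriers, the lowest of 16383 words. The 7 caveolar genes were left out of that ranking, but the word was picked with the values in view, and it had already appeared in an earlier look at these data. CAV2 carried 1 copy of it, on the sense strand (only that strand was searched), in the 3' UTR of its last exon at chr7:116506601-116506607 (GRCh38, plus strand), 479 bases after the stop codon. The 30 bases around it, with the word in capitals, read as follows.
CAV2 3' UTR: tggaaattgcaGTAACAAaagcacacaacg
The window lies at chr7:116506590-116506619. CAV1, PTRF, SDPR, PRKCDBP, EHD2 and PACSIN2 held 0 copies in the longest annotated 3' UTR, and also in any other annotated 3' UTR. At least 1 copy was present in 10.7% of all 10639 genes of the siRNA table with an annotated 3' UTR. The share was 11.6% among the 1826 genes whose 3' UTR was within 20% of the length of that of CAV2 (2420 bases). The match is a description: the siRNA sequences were not given in the sources used here, and a part for this word in the fall of CAV2 was not tested.

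No value per library was used, since each table gives 1 mean normalised count per gene over all libraries of its arm, with a log2 fold change against the control and its standard error. The group levels below were therefore computed from that mean and fold change, and they carry no error of their own. The kit (QuantSeq) primes at the polyadenylated end and gives about 1 tag per transcript whatever its length, so levels are compared between genes as 3' counts. PTRF was the most abundant gene of the set, with implied levels of 11536 normalised counts in scrambled siRNA, 10075 in CALCRL siRNA, 9617 in the CRISPR control and 16726 after the deletion. CAV1 followed with 6494, 5962, 5705 and 4745 normalised counts in the same order of groups. Both stood well above the other 5 genes in every group. CAV2 had 1202 normalised counts in scrambled siRNA, 681 in CALCRL siRNA, 885 in the CRISPR control and 775 after the deletion. SDPR lay between 1205 and 1442 normalised counts and PRKCDBP between 924 and 1357 over the 4 groups. EHD2 ranged from 680 to 1299 and PACSIN2 from 455 to 917. PACSIN2 was the lowest of the 7 in every group but the deletion, where CAV2 was. Whether neighbours in this order (SDPR, CAV2 and PRKCDBP in the controls) differ beyond their spread was not tested. As a sum, the 7 genes made up 0.473% of the summed mean normalised counts of the siRNA table and 0.455% of those of the deletion table.

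**Figure D1:**
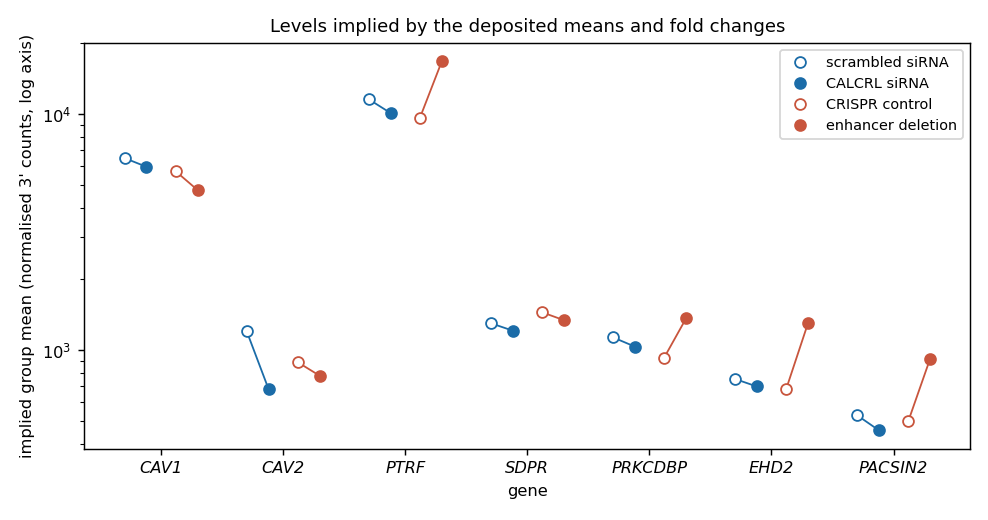
Implied group mean (normalised 3' counts, log axis) of each caveolar gene in the 4 groups, open for the control and filled for the treated group, joined within an arm. CAV2 drops from 1202 to 681 under CALCRL siRNA, and PTRF rises from 9617 to 16726 after the deletion.

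The target was lowered in both arms. CALCRL was at -1.56 (SE 0.17) on the log2 scale for siRNA and -1.47 (SE 0.43) for the deletion in the authors' deposited tables, which is 34.0% and 36.2% of the controls. Among endothelial markers, 8 of 9 gave values in both tables, and PECAM1 gave none in either. VWF was low, with means of 42.0 (siRNA) and 18.7 (deletion) normalised counts. Under siRNA 0 of the 8 passed an adjusted p of 0.05 (DESeq2, 1 at an unadjusted p under 0.05, CLDN5), while after the deletion 2 of 8 did, CDH5 (-1.44, SE 0.35) and KDR (-1.05, SE 0.31), both lower in the authors' deposited table. Of the 6 others, VWF (0.54, SE 1.14), CLDN5 (0.45, SE 0.42) and TIE1 (0.09, SE 0.20) were above 0 there and TEK, ERG and ESAM below it, in the authors' deposited table. The summed level of the 8 markers was 6185 normalised counts in scrambled siRNA, 6193 in CALCRL siRNA, 5927 in the CRISPR control and 3980 after the deletion. Of other cell types, ACTA2 and TAGLN among the 4 smooth muscle markers gave values, with summed levels of 396, 419, 222 and 204 in the same order, and CD68 alone among the 4 leukocyte markers, with 40.3, 42.1, 7.01 and 17.7. The fibroblast, striated muscle, adipocyte and epithelial markers gave no values. In bulk RNA, fewer cells of a type and less RNA per cell cannot be told apart.

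The siRNA comparison asked what changes when the CALCRL transcript is lowered. Among the caveolar genes, CAV2 was the one with a large shift. Its log2 fold change in the authors' deposited table was -0.82 (SE 0.07), with a Wald statistic of -12.3 and an adjusted p-value of 3.72e-31. CAV2 thus stood at 56.7% of its level in scrambled siRNA (95% interval 51.8% to 62.1%). Counting CAV2 itself, 4 of 11261 genes had a Wald statistic as low, while 106 had a log2 fold change as low, so its rank by Wald statistic rests on a small error as well as on its size. These CAV2 values are the ones that led to the set being chosen, and nothing is read from them. Called genes, at an adjusted p under 0.05, made up 3.46% of the 11261 genes tested, with 2.42% called lower and 1.05% higher; 1 of the 7 caveolar genes, CAV2, was called.

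CAV1 lies directly downstream of CAV2 on chromosome 7 and on the same strand, with 16243 bases between them. Under siRNA it was at -0.12 (SE 0.07, adjusted p 0.523) in the authors' deposited table, and its 95% interval ran from 83.3% to 101% of the control. The ratio of CAV1 to CAV2 counts was 5.40 in scrambled siRNA and 8.75 in CALCRL siRNA, and 6.45 and 6.12 in the CRISPR control and deletion groups.

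The cavins were each slightly lower and did not pass the test. For siRNA the authors' deposited table gave PTRF at -0.20 (SE 0.13), SDPR at -0.10 (SE 0.16) and PRKCDBP at -0.13 (SE 0.09). The membrane-shaping genes gave similar values, with EHD2 at -0.11 (SE 0.14) and PACSIN2 at -0.21 (SE 0.14) in the authors' deposited table. Leaving CAV2 aside, the 6 other genes had adjusted p-values that lay between 0.523 and 0.931, none had an unadjusted p under 0.05, and all 6 point estimates were below 0, with a median of -0.13 against a median of 0.00 over all genes. Taken singly, each of these 6 genes had a 95% interval that included 0. The lower ends of the 95% intervals were 72.7% of the control for PTRF, 74.6% for SDPR, 81.1% for PRKCDBP, 76.7% for EHD2 and 71.4% for PACSIN2, so falls larger than these lie outside the intervals.

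**Figure D2:**
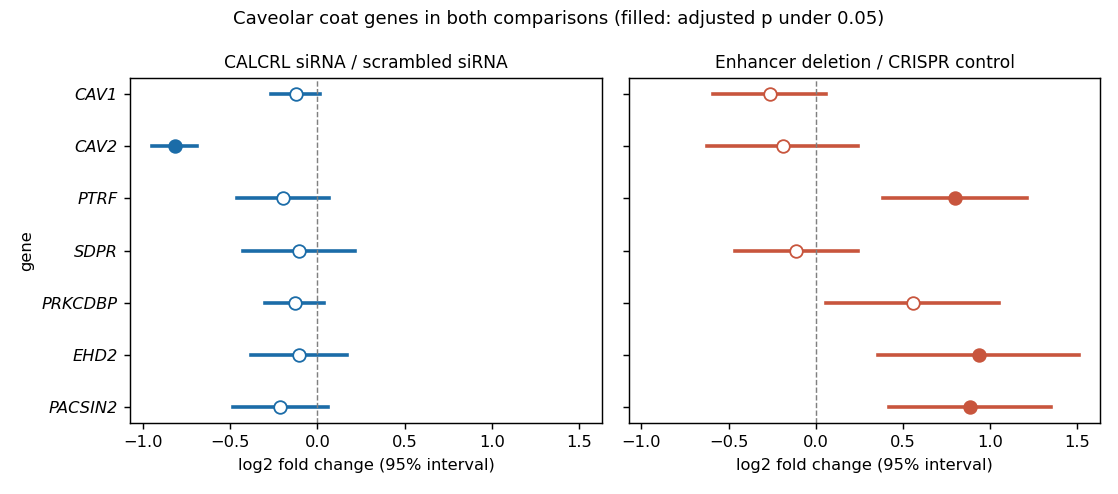
Log2 fold change of the 7 caveolar genes with its 95% interval, for CALCRL siRNA (left) and the enhancer deletion (right), filled where the adjusted p-value is under 0.05. CAV2 alone is filled on the left at -0.82, and PTRF, EHD2 and PACSIN2 are filled on the right at 0.80, 0.93 and 0.89.

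Across the genes outside the caveolar set, the siRNA fold change moved with the number of copies of the word shown above. Genes with 0 copies in the 3' UTR had a median log2 fold change of 0.01 (9498 genes), those with 1 copy -0.11 (979 genes), those with 2 copies -0.20 (126 genes) and those with 3 or more -0.21 (29 genes). Called lower were 1.22% of the genes with 0 copies, 10.9% of those with 1, 26.2% of those with 2 and 31.0% of those with 3 or more. CAV2, with 1 copy, was below most genes of its class: 26 of the 979 genes with 1 copy (2.66%) had a log2 fold change as low. In the deletion arm the medians were 0.01 for 0 copies, -0.15 for 1, -0.13 for 2 and -0.15 for 3 or more. There, 9.15% of the genes with 0 copies, 9.19% of those with 1, 8.20% of those with 2 and 13.8% of those with 3 or more (29 genes) were called lower. These shares are descriptions, since the word was picked from the siRNA values of the same genes. Deletion fold changes also followed GC content (given below), and its part in the deletion medians was not tested.

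**Figure D3:**
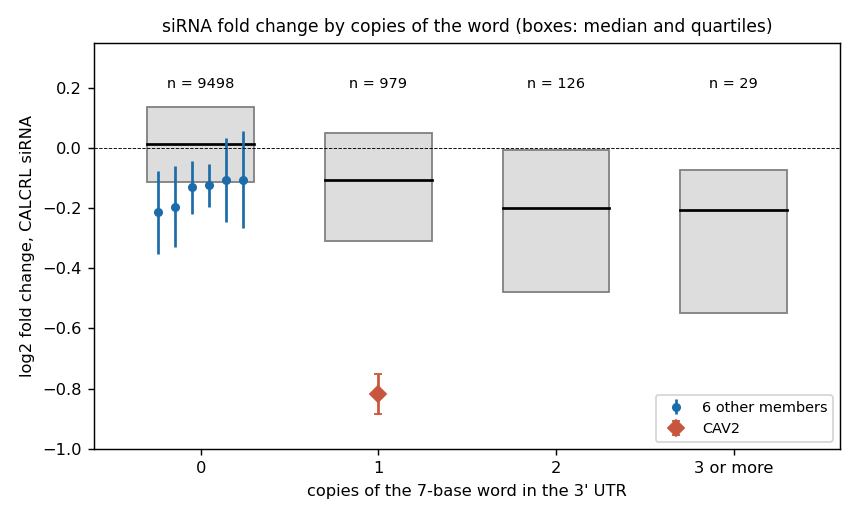
Log2 fold change under CALCRL siRNA (vertical axis) by copies of the 7-base word in the 3' UTR, with boxes for the median and quartiles of all other genes and points for the caveolar genes (bars are SE). CAV2, with 1 copy, is at -0.82, and the other 6 genes, with 0 copies, lie between -0.21 and -0.10.

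Among the genes whose pair of log2 fold changes (siRNA, deletion) lay nearest to that of CAV2, out of 7932 genes whose mean reached 50 normalised counts in both tables, were ACTR3, MTA2, PSMD10 and THAP5. ACTR3, which encodes a subunit of the Arp2/3 actin-nucleating complex, was nearest, at a Euclidean distance of 0.02, and the 3 others lay at distances from 0.08 to 0.09. Its log2 fold changes in the authors' deposited tables were -0.80 (SE 0.10) for siRNA and -0.20 (SE 0.20) for the deletion. MTA2, a subunit of the NuRD chromatin remodelling complex, was at -0.79 (SE 0.11) and -0.12 (SE 0.31) in the authors' deposited tables. The likeness rests on 2 comparisons only. Each of these 4 carried 1 copy of the word; they were picked for an siRNA value like that of CAV2, so this is no independent observation.

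The deletion comparison asked what changes when the CALCRL enhancer is removed. The stated reason for choosing the genes was the siRNA value of CAV2, though the deletion results were also known by then. PTRF, EHD2 and PACSIN2 rose, and the caveolins, SDPR and PRKCDBP did not pass the test. The log2 fold change of PTRF, the coat protein without which caveolae do not form, was 0.80 (SE 0.21, adjusted p 0.00387) in the authors' deposited table. This is 1.74-fold, with a 95% interval from 1.31 to 2.31. EHD2, the ATPase at the caveolar neck, was at 0.93 (SE 0.29, adjusted p 0.0171) in the authors' deposited table, or 1.91-fold with an interval from 1.28 to 2.85. For PACSIN2 the authors' deposited table gave 0.89 (SE 0.24, adjusted p-value 0.00454), or 1.85-fold with an interval from 1.34 to 2.55. Thus 3 of the 7 genes were called higher and 0 lower (4 of 7 had an unadjusted p under 0.05, all 4 higher), where 15.8% of the 11830 genes tested were called, 7.40% higher and 8.44% lower.

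For the deletion the authors' deposited table gave PRKCDBP at 0.55 (SE 0.25, adjusted p 0.114). SDPR, which lies 4.39 Mb from CALCRL on chromosome 2, stood there at -0.11 (SE 0.18, adjusted p 0.721) in the authors' deposited table. Its interval ran from 72.5% to 118% of the control. CAV1 was at -0.27 (SE 0.17, adjusted p-value 0.276) and CAV2 at -0.19 (SE 0.22, adjusted p 0.603) in the authors' deposited table. The CAV2 interval ran from 64.9% to 118% of the CRISPR control. The implied share of PTRF among the counts of the 3 cavins was 80.3% in the CRISPR control and 86.1% after the deletion, against 82.6% and 81.8% in scrambled and CALCRL siRNA. CAV1 stood at 0.593 times the PTRF count in the CRISPR control and at 0.284 times after the deletion.

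In the deletion arm the sign of the fold change, but not its order within each sign, went with the base composition of the transcript ends. The last 500 bases of SDPR, CAV2 and CAV1 held 27.8%, 28.8% and 32.0% G and C, and these 3 genes had fold changes below 0. PTRF, PACSIN2, EHD2 and PRKCDBP, with 52.2%, 53.4%, 58.8% and 62.6%, had fold changes above 0. Over all genes of the deletion table the median log2 fold change rose from -0.27 in the lowest of 10 classes by GC content to 0.60 in the highest, and in the siRNA table it was -0.03 and 0.01 in those classes. With the trend over the last 500 bases removed, PTRF was at 0.55 (adjusted p-value 0.0649), PACSIN2 at 0.59 (0.0802) and EHD2 at 0.45 (0.327), so that 0 of the 7 genes were called, with 2 at an unadjusted p under 0.05. Under that removal 12.4% of 11625 genes were called. Removing the trend over the whole transcript left PACSIN2 called at 0.82 (adjusted p-value 0.0102), but not PTRF (0.43, 0.159) or EHD2 (0.51, 0.250). With that trend removed, 13.3% of the 11625 genes were called. The 3 calls were also lost when the Wald statistics were scaled by their robust SD (1.88 over all deletion genes) or read against Student t with 4 degrees of freedom. Under either of these 2 settings 0 of 11830 genes were called, so that loss is not particular to the 3 genes. PRKCDBP was at -0.04 under both GC removals, and CAV2 (0.11 and 0.01) and SDPR (0.21 and 0.05) moved above 0, while CAV1 was at -0.03 and -0.16. The endothelial markers, of which 2 of 8 were lower and 3 had estimates above 0, are given above with their summed levels, and their part in the values of PTRF, EHD2 and PACSIN2 was not tested.

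**Figure D4:**
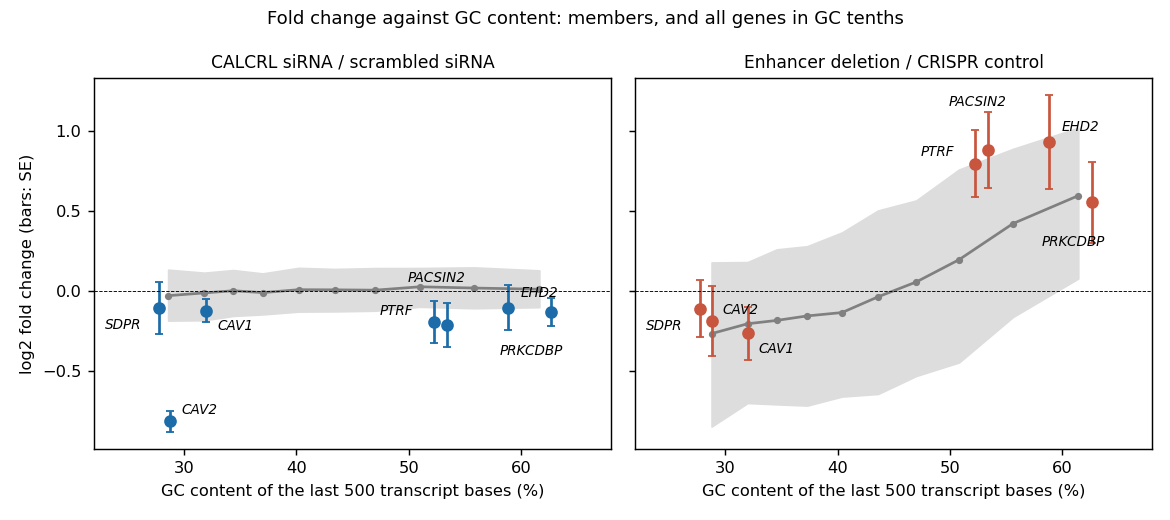
Log2 fold change (vertical axis, bars are SE) against the GC content of the last 500 transcript bases (%), for siRNA (left) and deletion (right); the grey line and band are the median and quartiles of all genes in 10 classes by GC content. On the right the 3 genes between 27.8% and 32.0% lie below 0 and the 4 genes between 52.2% and 62.6% lie above it. The grey line rises from -0.27 to 0.60.

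The effects of the arms were compared directly for the 6 genes other than CAV2, since the arms share no libraries. The arms differed in delivery, time and control as well, and these cannot be told apart. The siRNA log2 fold change minus that of the deletion was -0.99 (SE 0.25, adjusted p-value 0.00297) for PTRF, -1.04 (SE 0.33, adjusted p-value 0.0190) for EHD2 and -1.10 (SE 0.27, adjusted p-value 0.00277) for PACSIN2, by a Wald-type test on the DESeq2 estimates adjusted over 10891 genes. A difference below 0 was called in 6.49% of those genes, one above 0 in 7.22% and either in 13.7%. For PRKCDBP the difference was -0.69 (SE 0.27, adjusted p-value 0.0640), for CAV1 0.14 (interval from -0.21 to 0.50) and for SDPR 0.01 (interval from -0.47 to 0.48), none of them past the threshold. With the GC trend of the last 500 bases removed, PTRF (-0.76, adjusted p-value 0.0297) and PACSIN2 (-0.82, adjusted p-value 0.0333) were past it and EHD2 was not (-0.58, adjusted p-value 0.249). With the trend of the whole transcript removed, PACSIN2 alone was past it. For CAV2 the values stand side by side, -0.82 for siRNA and -0.19 for the deletion in the authors' deposited tables. Their difference of -0.63 is given with no interval and no test, since the siRNA value chose the gene.

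The 4 gene lists and the neighbours of CAV2 that follow are described by counts, to be read against the shares of all genes called, 3.46% under siRNA and 15.8% after the deletion; nothing particular to a list is read from them. The list of other genes of caveola assembly and its regulators, 21 genes, gave 15 values in each arm, and 1 was called higher and 1 lower under siRNA, 2 higher and 1 lower after the deletion, with medians of -0.11 and 0.21 against 0.00 over all genes in both tables. Under siRNA, ROR1, a receptor tyrosine kinase-like protein that binds caveolin-1 and cavin-1, was at -0.56 (SE 0.13, adjusted p 0.00152) in the authors' deposited table. FYN, a Src-family kinase that phosphorylates caveolins, was at 0.45 (SE 0.14, adjusted p 0.0422) in the authors' deposited table. After the deletion EHD1, a recycling ATPase of the same family as EHD2, was at 1.35 (SE 0.29, adjusted p 0.000217) in the authors' deposited table. FLOT2, a flotillin of lipid microdomains, was at 1.17 (SE 0.36) and ABL1, a tyrosine kinase that phosphorylates caveolin-1, at -1.27 (SE 0.37) in the authors' deposited table. After removal of the GC trend FLOT2 was no longer called, while EHD1 and ABL1 were. DNM2, the dynamin that cuts pits from the membrane, was at -0.06 (SE 0.08) and 0.09 (SE 0.22) in the authors' deposited tables.

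Of 22 genes of proteins known from endothelial caveolae, 20 gave values under siRNA, of which 0 were called (DESeq2, 3 at an unadjusted p under 0.05; 3.46% of all genes were called), with a median of 0.00. Carriers of GTAACAA among them were INSR at 0.23 (SE 0.38), ITGB1 at 0.14 (SE 0.12) and LRP6 at -0.31 (SE 0.23) under siRNA in the authors' deposited table. After the deletion 18 gave values, 1 called higher and 3 lower (all genes, 7.40% and 8.44%), with a median of -0.21. The sphingosine-1-phosphate receptor gene S1PR1 was at -2.79 (SE 0.52, adjusted p 1.44e-05) in the authors' deposited table, and the TGF-beta receptor gene TGFBR2 at -1.52 (SE 0.40, adjusted p-value 0.00409). The VEGF receptor gene KDR, a marker given above, was the other lower one. ACVRL1, the type I receptor for BMP9, was at 1.04 (SE 0.30, adjusted p 0.00744) in the authors' deposited table. With the GC trend of the last 500 bases removed, S1PR1, TGFBR2 and KDR were still called lower, and CD59 in place of ACVRL1 was called higher. NOS3, the synthase that caveolin-1 binds, was at -0.01 (SE 0.12) for siRNA and -0.12 (SE 0.28) for the deletion in the authors' deposited tables.

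The clathrin route, the other main coat for uptake, had 29 genes on its list, of which 24 gave values under siRNA and 26 after the deletion. Called were 1 of 24 and 9 of 26, where 3.46% and 15.8% of all genes were called, with medians of 0.03 and 0.36. EPS15, an adaptor scaffold, was at -0.83 (SE 0.13, adjusted p-value 5.08e-08) under siRNA in the authors' deposited table, a size like that of CAV2. Its 3' UTR held 0 copies of GTAACAA and 1 copy of GTATCAA, the fourth lowest of the ranked words. GTATCAA occurred in 8.95% of the 10639 genes and in 0 of the 7 caveolar genes. EPS15 was among the genes whose siRNA values ranked the words, so its copy is no independent observation. ROR1, also called lower under siRNA, held 0 copies of either word. The only clathrin gene with GTAACAA, ITSN1, was at 0.04 (SE 0.10) under siRNA in the authors' deposited table. After the deletion 7 clathrin genes were called higher, and those with the lowest adjusted p were the adaptor subunits AP2S1 (1.38, SE 0.41) and AP2M1 (0.96, SE 0.31) and the kinase GAK (0.74, SE 0.24) in the authors' deposited table. NECAP2 (-1.86, SE 0.50) and NECAP1 (-2.50, SE 0.74), which assist the adaptor, were the 2 called lower in the authors' deposited table. With the GC trend removed 3 of the clathrin genes were called higher: CLTA, AP2B1 and EPN1.

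Of 19 genes that supply caveolar lipid, 17 gave values under siRNA and 16 after the deletion. Called were 1 of 17 and 3 of 16, where 3.46% and 15.8% of all genes were called, with medians of 0.08 and 0.34. OSBP, which moves cholesterol to the Golgi, was at -0.56 (SE 0.15, adjusted p-value 0.00725) under siRNA in the authors' deposited table and carried 1 copy of GTAACAA. The siRNA value of OSBP was among those that ranked the word, so this copy is no independent observation. ABCA1, the other carrier on this list, was at -0.07 (SE 0.34) under siRNA in the authors' deposited table. NPC1, which exports cholesterol from lysosomes, was at -1.62 (SE 0.40) after the deletion in the authors' deposited table. PTDSS1, a phosphatidylserine synthase, was at 0.51 (SE 0.18) and the sphingomyelinase gene SMPD4 at 0.94 (SE 0.33) in the authors' deposited table. Both were no longer called once the GC trend of the last 500 bases was removed, and OSBP was then called higher.

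**Figure D5:**
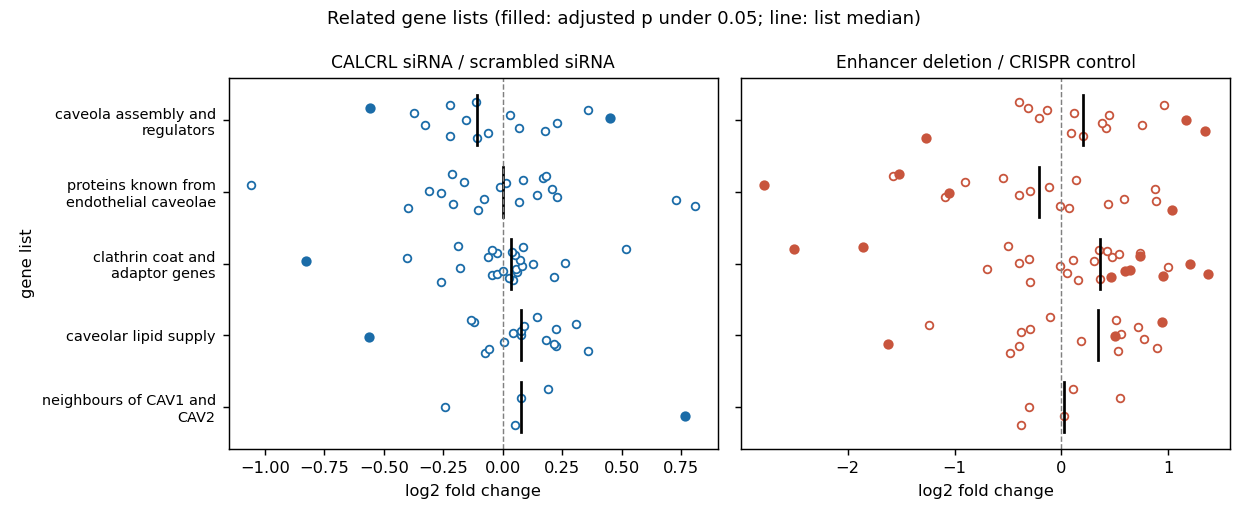
Log2 fold change of each gene in the 5 related lists for siRNA (left) and deletion (right), filled where the adjusted p-value is under 0.05, with a line at each list's median. The horizontal scales differ between the panels: siRNA list medians lie between -0.11 and 0.08, and deletion list medians between -0.21 and 0.36.

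CAV2 spans 116287380 to 116508541 and CAV1 116524785 to 116561184 on chromosome 7 (GRCh38), both on the plus strand. Of 8 protein-coding genes other than CAV1 with any part within 1 Mb of CAV2, 5 gave values: TFEC, TES, MET, CAPZA2 and ST7. MET, the hepatocyte growth factor receptor gene and the first protein-coding gene downstream of CAV1, was called higher under siRNA, at 0.77 (SE 0.14, adjusted p 1.49e-05) in the authors' deposited table. TES, the protein-coding gene upstream of CAV2, was at 0.08 (SE 0.14) under siRNA in the authors' deposited table. Lower calls under siRNA were 0 of 5 (DESeq2, 0 also at an unadjusted p under 0.05), where 2.42% of all genes were called lower, and none was made after the deletion (1 at an unadjusted p under 0.05, TES at 0.55, SE 0.25, in the authors' deposited table). TES, once the GC trend of the last 500 bases was removed, was called higher after the deletion.

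The remaining caveolar genes lie apart. In GRCh38 PTRF is on the minus strand of chromosome 17 (42402452 to 42423517), SDPR on the minus strand of chromosome 2 (191834302 to 191847255) and PRKCDBP on the minus strand of chromosome 11 (6318946 to 6320647). EHD2 is on the plus strand of chromosome 19 (47713343 to 47743134) and PACSIN2 on the minus strand of chromosome 22 (42835412 to 43015145). The 3' UTR of PRKCDBP, of 217 bases, overlaps an exon of the antisense gene AC068733.3, and whether the authors' counting used the strand was not given in the sources used here, so its count could include reads of that gene. No exon of another annotated gene overlapped the longest 3' UTR of the other 6.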

How the data were processed

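Sequencing of QuantSeq FWD libraries, which cover transcript 3' ends, was single-end over 86 cycles, per the labels' protocols. Reads were counted per gene with featureCounts and compared with DESeq2 by the authors, per the file headers and names; the submitters' processing notes also name hg19 and edgeR 3.24.3. The aligner, annotation, filters and strand setting were not given in the sources used here. The authors' deposited tables hold per gene a mean normalised count (a signal), a log2 fold change, the error of that change, the Wald statistic as a score, and the p-value before and after Benjamini-Hochberg adjustment. Library depth is unknown; the mean normalised counts summed to 4547165 (siRNA) and 5153709 (deletion).

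Intervals (95%, normal), group means (taking groups of an arm as equal in size), differences between arms and alternatives were computed from these values (Python 3.11.15, scipy 1.17.1, statsmodels 0.14.6). The difference test and trend removal were tested on simulated data with normal errors of the deposited size. The simulation did not cover the wider spread of the deletion Wald statistics (robust SD 1.88). GC trends were removed by lowess (span 0.3). Positions and 3' UTRs came from GENCODE 29 on GRCh38, matched by gene ID for 11099 and 11630 genes, taking each gene's transcript with the longest 3' UTR; no hg19 coordinates were used. Words of 7 bases carried by at least 20 genes were ranked on Wald statistics limited to between -6 and 6. Members, lists and words were chosen with earlier results of these data known. Named genes were all members, CALCRL, the called genes of each list (the 3 lowest adjusted p-values per direction where over 6 were called) and the 5 nearest to CAV2, of which 1 is not reported here; DNM2, NOS3, TES, CLDN5, the ratios between members, and CD59 and the clathrin genes called after GC removal were added after their values were seen.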

Additional observations from a re-analysis of the deposited data

Results flagged for a closer look

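PTRF, EHD2 and PACSIN2 were singled out because their fold changes differed between the 2 arms by a direct test. The siRNA log2 fold change was below that of the deletion by a difference of -0.99 for PTRF, -1.04 for EHD2 and -1.10 for PACSIN2. The same test called 13.7% of 10891 genes. EHD2 was not past the threshold with the GC trend of the last 500 bases removed, and only PACSIN2 was with the whole-transcript trend removed. With the robust SD or Student t, 0 of the 10891 genes were past it. The arms also differ in delivery, time and control, which cannot be told apart here. Since no value per library was used, no search for outlying libraries was made.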

How the results depend on the processing

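No paired analysis was possible because values per library were not analysed here. Leaving out replicates, the replicate block, other normalisations and other count tools need them too and were not run. The siRNA value of CAV2 chose the set, so its adjusted p-values under the 7 alternatives (from 2.29e-31 to 0.0406) are a description and support nothing. The 6 other genes were not called under any of the 7. In the deletion arm, 0 members were called with the GC trend of the last 500 bases removed (2 at an unadjusted p under 0.05), 0 with the Wald statistics divided by their robust SD (2 unadjusted), 0 under a Student t reference (3 unadjusted) and 1, PACSIN2, with the whole-transcript GC trend removed, an alternative chosen after seeing the data. The differences between the arms went from 3 members to 0 with the robust SD (2 unadjusted), 0 under Student t (3 unadjusted) and 1 with the whole-transcript trend removed. These last settings act on all genes: among genes tested for the deletion, 0 passed under the robust SD (535 unadjusted) or Student t (1646 unadjusted), and 5 tested for siRNA passed under Student t, CAV2 among them. Signs changed with the GC trend of the last 500 bases and of the whole transcript removed for CAV2 (0.11 and 0.0063), SDPR (0.21 and 0.050) and PRKCDBP (-0.037 and -0.041) in the deletion arm, and for the difference between the arms of SDPR (-0.29 and -0.15). For CAV1 that difference changed sign with the last 500 bases alone (-0.076).

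In the lists, all deletion calls fell to 0 under the robust SD and under Student t (5 and 18 of 80 genes unadjusted). The siRNA calls of the assembly, clathrin and lipid lists and of the CAV2 neighbours fell to 0 under Student t (7 of 81 unadjusted), and FYN, the assembly gene called higher, was also lost under the robust SD. With the GC trend of the last 500 bases removed, called higher after the deletion were 1 assembly gene (EHD1), 3 clathrin genes, 1 lipid gene (OSBP, in place of SMPD4 and PTDSS1) and 1 neighbour (TES). With a mean of at least 50 counts required, 1 clathrin gene (NECAP2) was called lower, since NECAP1 has a lower mean. A window of 2 Mb added 1 neighbour called lower after the deletion, LSM8. The causes of the other changes were not tested.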
